A study of Mus musculus with 6 samples.

Results

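Immediate early genes and heat shock genes were described in the immune cells of the mouse midbrain. The set held 37 genes of the 32285 gene rows measured, found by symbol in the feature lists of all 4 libraries. By role they were 7 AP-1 factors (Fos, Fosb, Jun, Junb, Jund, Fosl2, Atf3), 9 other early regulators (Ier2, Ier5, Klf2, Klf4, Klf6, Csrnp1, Cebpb, Cebpd, Ddit3), 11 genes of a mixed group called brakes here, of feedback genes and others (Dusp1, Dusp2, Zfp36, Zfp36l1, Btg2, Ppp1r15a, Sertad1, Tsc22d3, Rhob, Gem, Mcl1), and 10 heat shock genes (Hspa1a, Hspa1b, Hspa8, Hsp90aa1, Hsp90ab1, Dnajb1, Dnaja1, Hsph1, Hspe1, Hspb1). The symbol Ddit3 stood on a second feature row without a UMI, so that 38 rows carried these symbols, and the first was used.

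Immediate early genes are transcribed within minutes of a stimulus, from transcription factors already present in the cell. Fos and Jun proteins pair into AP-1, while Dusp1 (a MAP kinase phosphatase), Zfp36 (tristetraprolin, which binds AU-rich mRNAs for decay) and Btg2 belong to the feedback that ends the response. Heat shock genes encode chaperones and are switched on by heat shock factor 1 when proteins unfold. In microglia, both sets are also known to rise while tissue is dissociated with warm enzymes. For these cells the paper describes a filter and a Percoll gradient, cites earlier work for the method and names no enzyme. A level in sorted cells joins the state in the brain with that of the preparation.

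All mice were Line 61 males, 12 to 15 weeks old at injection, which carry human wild-type α-synuclein under the neuronal Thy1 promoter. They received PBS, α-synuclein monomer or preformed fibrils (PFF) in both striata. Mice given fibrils were gavaged with vehicle (VH, 0.1% DMSO) or AZD1480 (25 mg/kg), an inhibitor of JAK1 and JAK2, daily for 4 weeks from 2 weeks after injection. At 6 weeks, live CD45+ cells were sorted from 3 to 5 pooled ventral midbrains a sample, and each condition gave 1 single-cell library (PBS, Monomer, PFF + VH, PFF + AZD1480). The fibril libraries carried hashtag oligonucleotides, 4 in PFF + VH and 5 in PFF + AZD1480. Each hashtag was taken as 1 pooled sample, an assumption of the tests below. PBS and Monomer carried none, and library and condition cannot be told apart in any comparison between conditions.

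The filters kept 14617, 15031, 34436 and 13021 cells of PBS, Monomer, PFF + VH and PFF + AZD1480. Their median was 7028, 6688, 2306 and 6616 UMIs (molecules counted), so PFF + VH cells were the shallowest. Cells were put in classes by UMIs of fixed markers that are not members: microglia (MG), other myeloid cells (MM), split into border macrophages (BAM) and monocytes or dendritic cells (MonoDC) with a few MM cells in neither, then T and NK cells (T), B cells and neutrophils (Neu). MG were 13508, 13978, 31644 and 11917 cells, MM 228, 151, 180 and 224, and T 228, 187, 171 and 104. UMIs of the MG markers were also found in other classes. Carry-over from MG and the cells' own expression of these markers cannot be told apart there, and the class rule limits how many a cell can hold. They stood at 10.4% to 16.7% of the MG level in MM and at 3.3% to 12.9% in T, highest in T of PFF + VH. Between 51 and 163 barcodes were shared by any 2 libraries. Levels are CPM, the UMIs of a gene per 1000000 UMIs of the class.

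The sequence before the start site is shown for 4 members. The HSP70 pair had the lowest ratios of Monomer to PBS in MG, Zfp36l1 passed the AZD1480 test in both MG and T, and Hspb1 is a heat shock gene outside that pair. Stretches that overlap an annotated exon, such as those of Hsph1, Dnaja1 and Hspe1, are not printed. Each line gives the 150 bases upstream of the RefSeq start (GRCm38.p6), and capitals mark the motif searched on both strands. Those motifs are GAANNTTC (part of a heat shock element) in the first 3 genes, and TGANTCA (AP-1) and TATAAA in Zfp36l1.

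Hspa1a, chr17:34972157-34972306, minus strand: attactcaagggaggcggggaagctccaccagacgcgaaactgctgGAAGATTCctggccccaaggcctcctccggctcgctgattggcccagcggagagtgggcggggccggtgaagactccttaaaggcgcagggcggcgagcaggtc

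Hspa1b, chr17:34959239-34959388, minus strand: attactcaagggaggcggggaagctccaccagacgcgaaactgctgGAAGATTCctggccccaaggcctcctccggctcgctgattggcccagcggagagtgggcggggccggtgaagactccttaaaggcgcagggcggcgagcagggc

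Hspb1, chr5:135887769-135887918, plus strand: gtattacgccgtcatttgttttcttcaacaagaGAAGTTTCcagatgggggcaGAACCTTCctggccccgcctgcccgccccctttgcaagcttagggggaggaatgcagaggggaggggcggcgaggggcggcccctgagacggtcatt

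Zfp36l1, chr12:80113014-80113163, minus strand: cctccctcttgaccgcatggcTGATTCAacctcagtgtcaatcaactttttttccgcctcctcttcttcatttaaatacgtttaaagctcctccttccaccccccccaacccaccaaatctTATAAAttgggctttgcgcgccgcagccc

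On mm10, Hspa1a spans chr17:34969190-34972156 and Hspa1b chr17:34956436-34959238, both minus strand and both a single exon block. Cebpd, which kept its AZD1480 call in MG in every alternative run, spans chr16:15887286-15891031 on the plus strand, and Zfp36l1 chr12:80107754-80113013 on the minus strand. Hspa1a and Hspa1b, which encode the inducible HSP70, differed at 1 of these 150 bases and at 4 of the 300 bases from 250 before to 50 after the start. Their transcribed regions were not compared, so how well reads separate these genes was not tested. A value of either is best read with the other. RefSeq windows of 300 bases were found for 31 of the 37 members. GAANNTTC or its counterpart TTCNNGAA lay in windows of 6 of the 7 heat shock genes matched (Hspa1a, Hspa1b, Dnaja1, Hsph1, Hspe1, Hspb1). Of the 24 early genes matched it was 3 (Jun, Fosl2, Sertad1). Counted by window it was 7 of 11 for the heat shock genes (63.6%) and 3 of 29 for the early genes (10.3%). The share of all 32851 windows was 15.1%. The CRE letters TGACGTCA were found for Dusp1, Btg2 and Ppp1r15a (1.79% of all windows). TGANTCA was found for Csrnp1, Ddit3 and Zfp36l1 (7.81%), TATAAA for Fos, Junb, Cebpb, Zfp36l1 and Ppp1r15a (13.6%), and a CArG box for Zfp36 (1.63%). Each match is a description of letters only. The members were also short genes. A single exon block made up 10 of the 37 (27.0%) against 1.90% of 6226 other genes expressed in MG, and the median span was 4235 against 30906.5 bases.

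The 37 members together made up 3.32%, 3.24%, 2.89% and 3.20% of all MG UMIs in PBS, Monomer, PFF + VH and PFF + AZD1480. The 27 early genes took most of this, 2.91%, 2.93%, 2.62% and 2.90%, and the 10 heat shock genes 0.418%, 0.310%, 0.264% and 0.304%. Jun was the most abundant member in MG in every library, at 4886, 4860, 4047 and 4268 CPM. Junb followed at 3145, 3398, 3160 and 3578, Fos at 2762, 2748, 2457 and 2472, and Btg2 at 2408, 2411, 2105 and 2461 CPM. Among the low members, Hspb1 lay between 13.4 and 26.5 CPM and Fosl2 between 35.8 and 38.5 CPM, and Hsph1, also low, is given below. CPM from 3′ counts are set between genes here only as UMI shares.

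**Figure D1:**
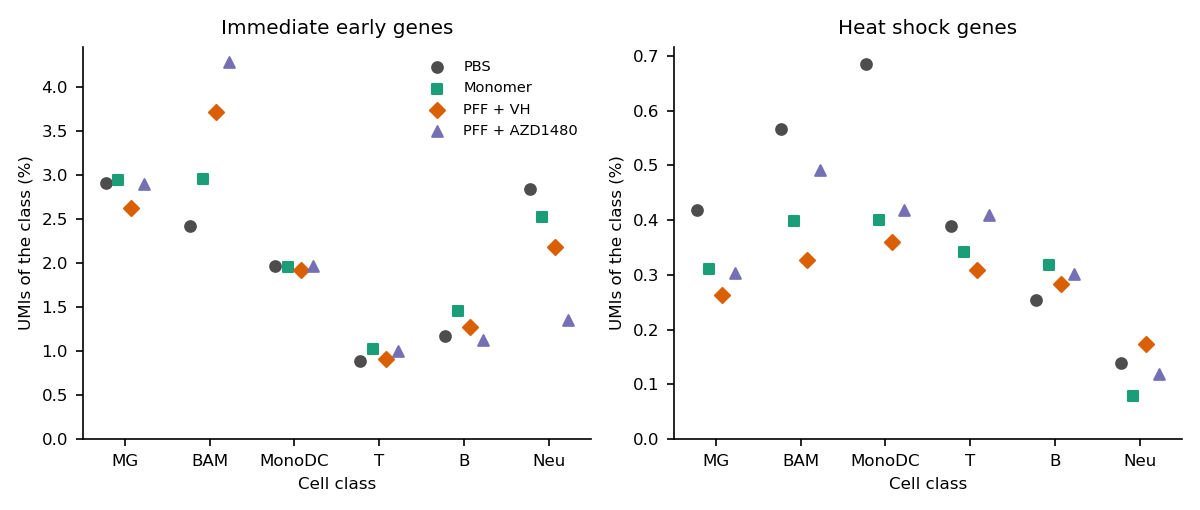
Share of UMIs in % (y axis) taken by the 27 immediate early genes (left) and the 10 heat shock genes (right) in each cell class (x axis), 1 point per library. Early genes took 2.62% to 2.93% in MG and 0.89% to 1.02% in T, while BAM ranged from 2.42% in PBS to 4.28% in PFF + AZD1480.

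Cells of a class were far from uniform. When every MG was thinned to 1000 UMIs (474, 722, 4203 and 281 shallower cells left out), a cell of PBS held a mean of 27.0 early-gene UMIs with an SD of 21.2 over cells. The same values were 27.5 and 19.8 in Monomer, 25.4 and 14.7 in PFF + VH, and 27.0 and 18.7 in PFF + AZD1480. MG with at least 40 early UMIs made up 27.9%, 26.6%, 16.6% and 24.2%, and MG with none 0.35%, 0.29%, 0.04% and 0.28%. The spread was thus narrowest in PFF + VH at both ends, although the means were close. Fos and Jun were the pair of members that moved most closely together over MG of a library. Their correlation on log counts was r = 0.46 to 0.63 over the 4 libraries, each with 11636 to 27441 cells that share depth and preparation, and the median over all early pairs was 0.08 to 0.15. Summed early and heat shock UMIs of a cell correlated at 0.39, 0.36, 0.26 and 0.17.

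Early-gene levels went with the number of UMIs in the cell, and PFF + VH did not follow the other libraries in this. MG with 2000 to 5000 UMIs held 19153, 20611, 26045 and 19460 CPM of the 27 early genes in PBS, Monomer, PFF + VH and PFF + AZD1480, and MG with over 5000 and up to 10000 UMIs held 28927, 29716, 27425 and 30222 CPM. PBS, Monomer and PFF + AZD1480 thus lay far higher in the deeper cells, and PFF + VH was nearly level. In 4 equal groups of MG ranked by depth within a library, the sum rose from 18915 to 32491 CPM in PBS, from 19405 to 32068 in Monomer and from 18280 to 30908 in PFF + AZD1480. In PFF + VH it went from 22450 to 27332 CPM. The same UMI range covers other cells in each library, since the lower window held 14.8%, 16.4%, 41.0% and 20.8% of MG.

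The ratio of the deeper to the lower window was above 1 for each of the 27 early genes in PBS (1.05 to 1.85) and in PFF + AZD1480 (1.20 to 1.79). In the deeper window 10 of 27 were at least 1.5-fold higher in PBS (0.536% of 6341 genes were), 9 in Monomer (0.457%), 15 in PFF + AZD1480 (1.37%) and 0 in PFF + VH (0.0%). None of the 27 was 1.5-fold lower in any library, beside 0.0946%, 0.126%, 0.0315% and 1.48% of all genes in PBS, Monomer, PFF + VH and PFF + AZD1480. Fos, an AP-1 subunit, rose 1.85-fold, 1.73-fold, 1.06-fold and 1.55-fold from the lower to the deeper window in PBS, Monomer, PFF + VH and PFF + AZD1480. Jun, its partner, rose 1.65-fold, 1.54-fold, 1.05-fold and 1.68-fold, and Ppp1r15a, a phosphatase subunit of the stress response, 1.75-fold, 1.63-fold, 1.11-fold and 1.79-fold. These are 1 library each, with no test. Of the heat shock genes, Dnajb1, the HSP40 that works with HSP70, was past 1.5-fold in PBS, Monomer and PFF + AZD1480, at 1.77-fold, 1.68-fold and 1.63-fold. The median of the 9 heat shock genes over 20 CPM was 1.29, 1.18, 1.02 and 1.04.

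**Figure D2:**
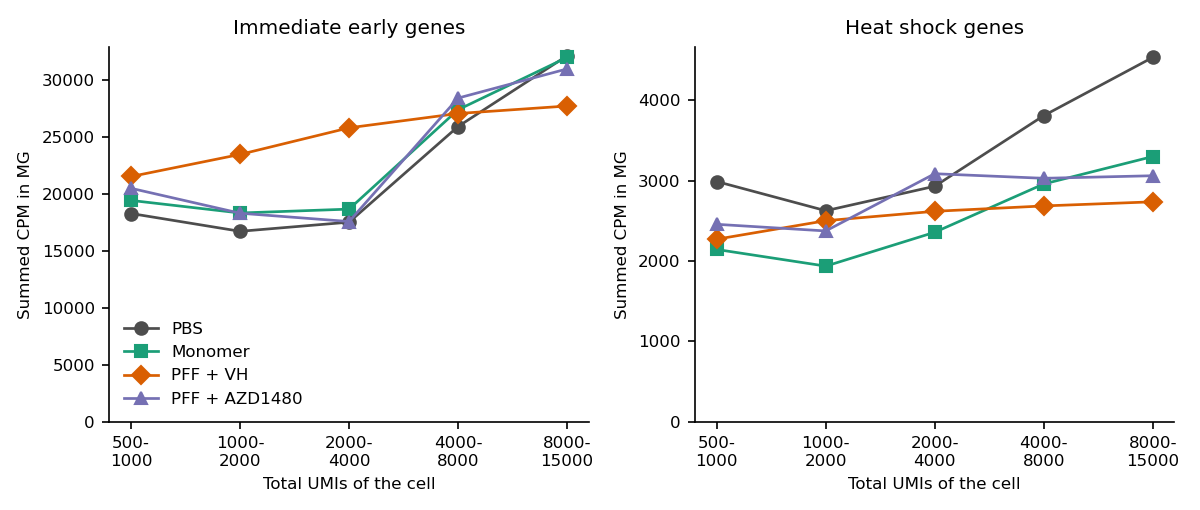
Summed CPM in MG (y axis) of the 27 early genes (left) and 10 heat shock genes (right) by total UMIs of the cell (x axis), 1 line per library. In PFF + VH the early genes stayed between 21545 and 27738 CPM, while PBS went from 16728 CPM in cells of 1000 to 2000 UMIs to 32152 CPM in cells of 8000 to 15000.

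The same dependence was seen when each fibril library was split by hashtag. The early-gene sum in the deeper window over that in the lower one was 1.02, 1.12, 1.03 and 1.10 in hashtags 1 to 4 of PFF + VH. It was 1.54, 1.61, 1.51, 1.49 and 1.58 in hashtags 1 to 5 of PFF + AZD1480. The values of the 2 libraries did not overlap. All hashtags of a condition lie in the same library, so this still compares 1 library with another. For the heat shock sum the ratio was 1.03, 1.06, 1.01 and 1.03 in PFF + VH and 1.05, 0.97, 1.04, 0.97 and 0.97 in PFF + AZD1480. Median mitochondrial shares in the 2 windows were 1.05% and 1.13% in PFF + VH, and 1.18% and 0.706% in PFF + AZD1480. In PBS they were 0.528% and 0.749%. The rRNA-overlapping Gm42418 went from 12438 to 9219 CPM between the windows of PFF + VH. The fall was from 12085 to 8173 CPM with AZD1480 and from 7505 to 6240 CPM in PBS. The part of these measures in the early-gene values was not tested.

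Heat shock genes were highest in PBS for 9 of the 10 members in MG, and for 10 of 10 the Monomer value was below that of PBS. The share over all genes is not given for either count, and the median ratio of Monomer to PBS over all genes was 0.975. Between Monomer and PBS, 4 of the 36 members over a mean of 20 CPM were past 1.5-fold, all of them lower and all heat shock genes, where 0.347% of 6341 genes were past it and 0.3% were lower. Hspa1a went from 258 to 125 CPM (ratio 0.486), and Hspa1b from 129 to 51.5 CPM (0.400). Hsph1, the HSP110 exchange factor of HSP70, went from 47.8 to 27.2 CPM (0.569), and Dnaja1, another HSP40, from 293 to 189 CPM (0.645). The median ratio was 0.714 for the heat shock genes, 1.01 for the AP-1 factors and 0.975 for all genes. Past 1.5-fold only heat shock genes were thus found, with the inducible HSP70 pair lowest and Fos (0.995) and Jun near 1. Below that fold the sets overlapped. The early-gene sum was 29060 CPM in PBS and 29344 CPM in Monomer, but 16 of the 27 early genes were lower in Monomer. The median of all genes was also lower there, so this count does not set the early genes apart. In the deeper window Klf2 went from 1305 to 1052 CPM and Ddit3 from 90.8 to 69.0 CPM. Both fell by a larger share than the heat shock gene Hsp90ab1, from 1115 to 978 CPM.

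PFF + VH was lower again for 2 members against Monomer (2.49% of all genes were past 1.5-fold, 0.347% lower), namely Hspa1b at 22.7 CPM (ratio 0.441) and Hsph1 at 14.3 CPM (0.524). PFF + AZD1480 against PFF + VH was past it for 3 members, all higher (1.72% of all genes, 0.741% higher). These were Hspa1a at 137 against 85.1 CPM (1.61), Hspa1b at 54.7 against 22.7 CPM (2.41), and Hsph1 at 24.1 against 14.3 CPM (1.69). Against Monomer, PFF + AZD1480 differed by 1.5-fold in 2 members (2.65% of all genes). Cebpd, a C/EBP factor, was lower at 87.7 against 134 CPM (0.655), and Dusp2, a nuclear MAP kinase phosphatase, was higher at 158 against 91.6 CPM (1.73). Within MG of 2000 to 5000 UMIs these counts changed. PFF + VH was then past 1.5-fold against Monomer in 9 members (5.82% of 6371 genes), 7 of them higher (3.15% of genes) and 2 lower (2.67%). The ratios of the 7 were 1.53 for Fos, 1.54 for Atf3, 1.70 for Ier2, 2.04 for Dusp2, 1.82 for Ppp1r15a, 1.53 for Sertad1 and 1.58 for Gem. PFF + AZD1480 against PFF + VH was past it in 7 members there (2.48% of genes). Hspa1a, Hspa1b and Hsph1 were higher (0.957% of genes), and Ier2 (0.646), Klf2 (0.647), Cebpd (0.602) and Dnajb1 (0.626) were lower (1.52%). Hspa1a, Hspa1b and Hsph1 kept their direction in both depth windows in the Monomer to PBS and PFF + AZD1480 to PFF + VH ratios. All ratios compare single libraries. The share of MG with an Hspa1a UMI, after thinning to 1000 UMIs, was 15.5% in PBS (exact 95% interval 14.9% to 16.1%, counting error only), 8.94% in Monomer, 6.96% in PFF + VH (6.66% to 7.26%) and 9.61% in PFF + AZD1480. In T it was 3.11%, 2.72%, 1.26% and 3.85%, and without thinning the MG shares were 39.1%, 25.2%, 15.5% and 29.5%.

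**Figure D3:**
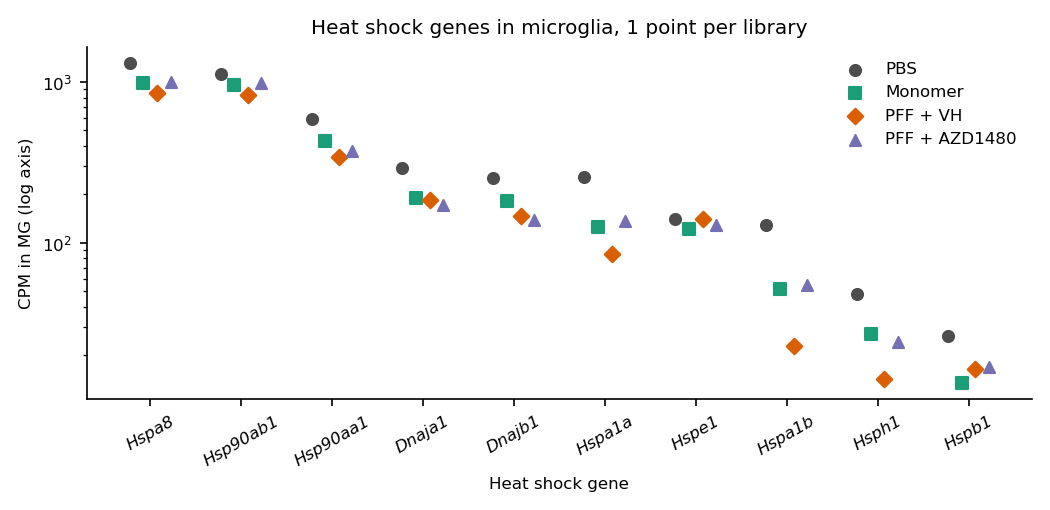
CPM in MG on a log axis (y axis) of the 10 heat shock genes (x axis), 1 point per library, ordered by mean level. The PBS point is the highest for every gene other than Hspe1, and Hspa1b ran from 129 CPM in PBS to 22.7 CPM in PFF + VH.

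Hspa1a was also highest in PBS in BAM and in MonoDC. BAM held 803, 434, 241 and 441 CPM in PBS, Monomer, PFF + VH and PFF + AZD1480, and MonoDC 934, 383, 170 and 175 CPM. T held 55.1, 25.6, 23.8 and 57.8 CPM, much less, with PFF + AZD1480 as high as PBS. PBS was the highest library for 8 of 10 heat shock genes in BAM, 9 in MonoDC, 5 in T and 3 in B. In neutrophils it was PFF + VH for 5 of 10 and PBS for 3. These counts, too, stand without the share over all genes. Where only genes averaging 50 CPM or more were counted, 4 of 8 heat shock genes in BAM were at least 1.5-fold lower in Monomer than in PBS (6.9% of 3362 genes), and in MonoDC 5 of 8 (11.3% of 3394 genes). In T it was 1 of 7 (3.49% of 3500 genes). PBS and Monomer held 183 and 102 BAM, and 45 and 47 MonoDC.

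In BAM the early genes differed between libraries more than in MG, in 1 library per condition and without a test. Their sum was 2.42%, 2.95%, 3.71% and 4.28% of UMIs in PBS, Monomer, PFF + VH and PFF + AZD1480, and 14 of the 27 genes were higher at each step in that order, beside 3.21% of 3362 genes in BAM. PFF + VH against PBS was at least 1.5-fold higher for 11 of 27 early genes, beside 5.18% of 3362 genes, and lower for 1, beside 7.56%. Fos stood at 2833, 3840, 4652 and 5448 CPM, Jun at 4197, 4558, 5470 and 6635 CPM, and Atf3 at 1273, 1817, 2942 and 3195 CPM. Klf2, at 924, 1291, 2228 and 1348 CPM, did not keep this order in the last library. The BAM of these libraries were 183, 102, 131 and 183 cells, and MG markers in them stood at 17.2%, 14.9%, 20.8% and 20.7% of the MG level, whose part in the values was not tested.

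AZD1480 against VH was tested in MG over hashtags, 4 against 5, with the quasi-likelihood test of edgeR and p-values adjusted by Benjamini and Hochberg over 13558 genes. Only MG with a single hashtag entered, 16553 of 31644 in PFF + VH and 9907 of 11917 in PFF + AZD1480. In PFF + VH, 11704 MG without a hashtag were left out, with a median of 1438 UMIs against 3005 in MG with a single one. Of the 37 members, all tested, 3 were higher and 2 lower with AZD1480 (13.5% called), beside 26.6% of all genes called (12.1% higher, 14.4% lower). The C/EBP factors moved apart, Cebpb up and Cebpd down, and 2 feedback genes, Zfp36l1 and Tsc22d3, were higher. No AP-1 factor passed the test. Hashtags of the libraries did not overlap for 4 of the 37 members (Cebpb, Zfp36l1 and Btg2 higher, Cebpd lower), beside 23.9% of all genes.

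Cebpd, a C/EBP factor that is a known target of STAT3, stood at 119, 111, 128 and 121 CPM in VH hashtags 1 to 4 and at 97.2, 84.5, 83.7, 88.0 and 83.9 CPM in AZD1480 hashtags 1 to 5. Every AZD1480 value was below every VH value, and the log2 fold change was -0.50 (SE 0.06, edgeR adjusted p = 0.000155). Cebpb, its relative in myeloid inflammation, stood at 382, 491, 468 and 391 CPM with VH and at 589, 554, 564, 574 and 566 CPM with AZD1480. The groups did not overlap, with a log2 fold change of 0.34 (SE 0.08, edgeR adjusted p = 0.0108). Zfp36l1, an mRNA decay factor of the Zfp36 family whose promoter is shown above, stood at 748, 840, 767 and 819 CPM with VH and at 874, 1114, 1124, 1023 and 1086 CPM with AZD1480, again without overlap (log2 fold change 0.34, SE 0.07, edgeR adjusted p = 0.00598).

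Tsc22d3, the glucocorticoid-induced leucine zipper gene Gilz, stood at 80.9, 113, 84.4 and 72.3 CPM with VH and at 103, 119, 141, 163 and 111 CPM with AZD1480. VH hashtag 2 lay inside the AZD1480 range, and the log2 fold change was 0.49 (SE 0.15, edgeR adjusted p = 0.0329). Hspe1, the mitochondrial HSP10, stood at 141, 144, 165 and 143 CPM against 117, 129, 145, 139 and 107 CPM. These groups overlapped too, with a log2 fold change of -0.27 (SE 0.09, edgeR adjusted p = 0.0426). Leaving out hashtags 3 or 4 of AZD1480 or 1, 3 or 4 of VH ended the call of Tsc22d3, and leaving out hashtags 1, 2 or 5 of AZD1480 or 2, 3 or 4 of VH that of Hspe1.

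The abundant members did not pass the test. Fos stood at 1882, 2977, 2601 and 2204 CPM with VH and at 2393, 2561, 2762, 2618 and 2158 CPM with AZD1480, a log2 fold change of -0.01 (SE 0.13, edgeR adjusted p = 0.972). Jun had 0.05 (SE 0.09, edgeR adjusted p = 0.726), Junb 0.14 (SE 0.08, edgeR adjusted p = 0.241) and Btg2, an antiproliferative p53 target, 0.20 (SE 0.08, edgeR adjusted p = 0.0659). The spread of Fos over VH hashtags was a CV of 19.7%, against 9.3% over AZD1480 hashtags. Hspa1b stood at 15, 17.0, 30.5 and 24.9 CPM with VH and at 21.7, 44.8, 45.8, 105 and 24.9 CPM with AZD1480. Its log2 fold change of 1.12 (SE 0.41, edgeR adjusted p = 0.0597) was the largest among the members, and AZD1480 hashtag 4 alone lay above 50 CPM.

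**Figure D4:**
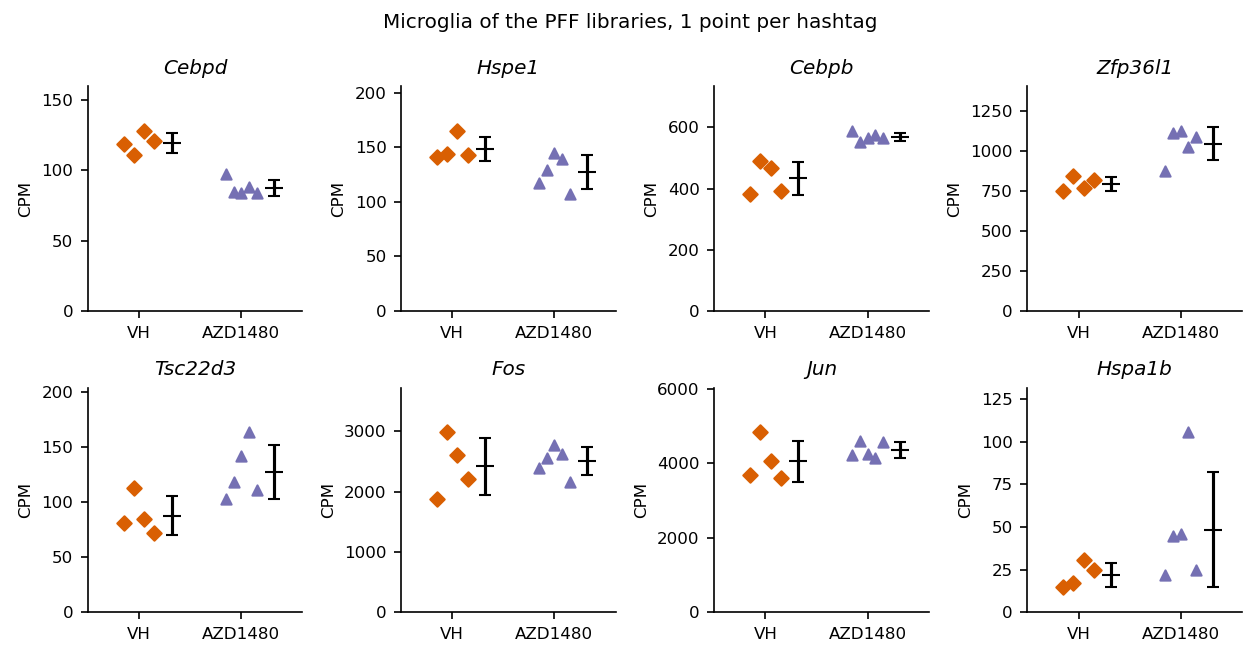
CPM in MG (y axis) of 8 members in VH and AZD1480 (x axis), 1 point per hashtag, with the mean and SD beside them. Cebpd, Cebpb and Zfp36l1 separate the 2 libraries, whereas Fos, Jun, Hspe1, Tsc22d3 and Hspa1b overlap.

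VH hashtag 2 held the highest VH value for 26 of the 37 members and for 25 of the 27 early genes. The share over all genes is not given, so this count does not set the members apart. The early-gene sums of VH hashtags 1 to 4 were 23090, 30746, 26754 and 23658 CPM, and those of AZD1480 hashtags 1 to 5 were 29329, 30253, 29970, 28656 and 29260 CPM. VH hashtags thus differed more among themselves than AZD1480 hashtags did, and hashtag 2 was also the deepest of VH (median 3374 UMIs, others from 2639). Without VH hashtag 2, 16 members passed the test, 15 of them higher with AZD1480, beside 22.5% of all genes called in the same fit.

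The direction of most members changed with the depth window. In the comparison over single-hashtag MG of all depths, 28 of 37 members had a positive log2 fold change, with a median of 0.15 against -0.0014 over all genes. In MG of 2000 to 5000 UMIs only 10 of 37 did, with a median of -0.37 against 0.0083 over all genes, and 16 members passed the test, 15 of them lower with AZD1480, beside 5.25% of all genes (1.9% higher, 3.35% lower). Lower in that window were Jun at -0.55 (SE 0.09, edgeR adjusted p = 0.000932), Fos at -0.49 (SE 0.13, adjusted p = 0.0332), Ier2 at -0.60 (SE 0.10, adjusted p = 0.00165), Klf2 at -0.60 (SE 0.15, adjusted p = 0.03) and Dnajb1 at -0.65 (SE 0.14, adjusted p = 0.00962). The other 10 were Cebpd, Junb, Ier5, Klf6, Zfp36, Btg2, Ppp1r15a, Sertad1, Gem and Mcl1. Hspa1b was higher at 1.33 (SE 0.37, edgeR adjusted p = 0.0444). That window held 41.0% of all MG in PFF + VH and 20.8% in PFF + AZD1480. It thus set different parts of the 2 libraries beside each other, and the part of this in the calls was not tested. In MG of over 5000 and up to 10000 UMIs, 27 of 37 were positive, and Cebpb, Zfp36l1 and Tsc22d3 (higher) and Cebpd (lower) passed, beside 17.2% of all genes. Cebpd alone of the members called over all depths was called in both windows, at -0.68 and -0.45.

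Other genes of the same and neighbouring responses were counted from fixed lists in the same test, to be read against the 26.6% of all genes called. Of 30 other early genes, 6 were higher and 3 lower with AZD1480. By the smallest adjusted p these were Nr4a1, an orphan nuclear receptor (log2 fold change 0.68, SE 0.11, edgeR adjusted p = 0.00108), Tnfaip3, the NF-κB brake A20 (0.62, SE 0.11), and Zfp36l2 (0.35, SE 0.07). Socs3, a feedback inhibitor of JAK signalling that was picked out after its value was seen, was lower at -0.36 (SE 0.10, edgeR adjusted p = 0.0228). Of 19 other chaperone genes tested, 1 was called, Hsf1, the heat shock factor (0.27, SE 0.07, edgeR adjusted p = 0.0141). Of 16 endoplasmic reticulum stress genes tested, Atf4 was higher (0.22) and Xbp1 lower (-0.18). Of 10 NRF2 targets and regulators tested, 2 were higher and 2 lower, with Nfe2l2, which encodes NRF2, at 0.63, Gclc at 0.44 and Prdx1 at -0.32. Of 10 genes of the glucocorticoid response tested, 3 were higher. These were Txnip at 0.34, Nr3c1, which encodes the glucocorticoid receptor itself, at 0.14, and Per1 at 0.33.

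In MM the AZD1480 comparison used hashtags 1 to 4 of VH and 1, 2, 4 and 5 of AZD1480 (27 to 49 cells each), and hashtag 3 of AZD1480 with 9 cells was left out. By edgeR's quasi-likelihood test 0 of 34 members passed, beside 0.0695% of all genes, and DESeq2 called 0. An unadjusted p under 0.05 was found for 7 members. The share of all genes under that cut is not given, so this count does not set the members apart. Of the 34, 30 had a positive log2 fold change (25 to 32 of 33 to 35 when 1 hashtag was left out, 17 of 23 in cells thinned to 1000 UMIs), with a median of 0.27 against -0.011 over all genes. The member with the smallest adjusted p was Klf2, a factor of quiescent immune and endothelial cells. It stood at 1541, 2100, 1918 and 2088 CPM with VH and 1366, 960, 1580 and 645 CPM with AZD1480, which overlapped (edgeR adjusted p = 0.254). Groups did not overlap for 2 of the 34 members, Atf3 and Klf4, both higher with AZD1480, beside 6.19% of all genes. Atf3 stood at 2131, 2592, 2168 and 1897 CPM with VH and at 2905, 3275, 2709 and 2632 CPM with AZD1480.

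In T the comparison used 4 VH hashtags and hashtags 1, 2 and 4 of AZD1480 (14 to 40 cells each). Of 27 members tested, 2 were higher with AZD1480, beside 3.12% of all genes called and 1.51% higher. Zfp36l1 stood at 496, 426, 652 and 387 CPM with VH and 1324, 862 and 882 CPM with AZD1480 (log2 fold change 1.04, SE 0.23, edgeR adjusted p = 0.00982). Hspa8, the constitutive HSC70, stood at 724, 716, 978 and 682 CPM with VH and 1324, 1267 and 1195 CPM with AZD1480 (0.69, SE 0.19, edgeR adjusted p = 0.0421). Neither pair of groups overlapped. Of the 27 members tested, 7 had groups that did not, all higher (also Fosb, Jund, Fosl2, Ier5 and Hsp90ab1), beside 11.9% of all genes tested. Leaving out AZD1480 hashtag 1 or VH hashtag 4 ended both calls, and the call of Hspa8 was also lost without AZD1480 hashtag 2 or 4, or VH hashtag 1 or 2. The test of whether the AZD1480 effect differed between classes called 0 of 35 members, for MM against MG (0.114% of all genes) and for T against MG (0.476%). DESeq2 called 0 in both. Unadjusted p was under 0.05 for 3 and 4 members, counts that again stand without the share over all genes.

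MM against MG was tested within hashtags of both fibril libraries. Of 35 members tested, 22 were higher and 5 lower in MM (edgeR, adjusted p under 0.05), beside 47.0% of all genes (24.3% higher, 22.7% lower). Of these, 5 of 7 AP-1 factors, 7 of 9 other regulators, 5 of 11 in the brakes group and 5 of 8 heat shock genes were higher. The library-wide early-gene sum was higher in MM than MG in PFF + VH (31395 against 26213 CPM) and PFF + AZD1480 (36973 against 28974 CPM). It was lower than MG in PBS (22854 against 29060 CPM) and Monomer (25694 against 29344 CPM), which this test did not include. In MonoDC, a part of MM, the sum was 19158 to 19639 CPM over the 4 libraries, below MG in each. Klf4, a Krüppel-like factor of monocytes and macrophages, stood at 194, 671, 490 and 543 CPM in MM of VH hashtags and 886, 685, 907 and 827 CPM in MM of AZD1480 hashtags. In MG it lay at 153 to 243 CPM, so that MM were higher in each hashtag used, by 1.79 on the log2 scale (SE 0.15, edgeR adjusted p = 5.85e-12). Hspa1a stood at 343, 266, 115 and 95.9 CPM in MM of VH and 431, 613, 415 and 30.3 CPM in MM of AZD1480. Hashtag 5 of AZD1480 was the exception, with 73.6 CPM in its MG, and the log2 fold change was 1.40 (SE 0.23, edgeR adjusted p = 3.63e-06). Fosl2 (1.71), Dusp1 (1.24), Tsc22d3 (1.19), Sertad1, a cell cycle regulator (1.08), Hspa1b (1.01), Fosb (0.96) and Klf6 (0.92) followed. Leaving out AZD1480 hashtag 1 or VH hashtag 2 ended the call of Hspa1b (0.81 and 0.68 on the log2 scale), as did DESeq2 (0.89).

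The 5 members lower in MM were Gem, Ppp1r15a, Rhob, Ier5 and Junb. Gem, a small GTPase that inhibits calcium channels, stood at 104, 57.9, 115 and 10.7 CPM in MM of VH and 49.2, 38.0, 24.2 and 190 CPM in MM of AZD1480, where MG held 431 to 556 CPM. The log2 fold change was -2.93 (SE 0.25, edgeR adjusted p = 5.59e-12). Over the 4 libraries Gem in MM was at 6.0% to 18.4% of its level in MG, and the MG markers stood at 10.4% to 16.7%. The hashtag values spread widely, and the part of carry-over in them was not tested. Ppp1r15a had -1.21 (SE 0.13), Rhob, a GTPase of the cytoskeleton, -0.87 (SE 0.14), Ier5 -0.56 (SE 0.12) and Junb -0.53 (SE 0.11). Junb thus lay below MG in MM while Fos (0.85) and Fosb lay above, and Jun (0.18, SE 0.13) did not pass the test.

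T against MG went the other way, with 5 members higher and 25 lower of 35 tested, beside 63.1% of all genes (29.9% higher, 33.3% lower). Atf3, Rhob and Cebpd lay lowest. Atf3, a stress-induced partner of AP-1, stood at 188, 254, 86.3 and 244 CPM in T of VH and 185, 149 and 220 CPM in T of AZD1480, against 1465 to 2359 CPM in MG. The log2 fold change was -3.49 (SE 0.16, edgeR adjusted p = 5.05e-19). In T of the 4 libraries Atf3 stood at 4.15%, 7.17%, 12.2% and 10.2% of MG, and the MG markers at 3.3%, 4.1%, 12.9% and 8.7%. The part of carry-over in the T values of Atf3 was not tested. Rhob had -3.11 (SE 0.19), Cebpd -3.10 (SE 0.38), Jun -2.68 (SE 0.15), Fos -2.64 (SE 0.16) and Zfp36 -2.36 (SE 0.15). Rhob stood at 7.73%, 7.17%, 15.8% and 11.1% of its MG level in T of the 4 libraries and Cebpd at 10.5%, 6.15%, 7.57% and 15.6%. The Cebpd values rest on 18, 9, 5 and 9 UMIs, and the part of carry-over in both genes was not tested. Klf4 (-1.93), Ier5 (-1.83), Hspa1a (-1.78), Klf2 (-1.77) and Ppp1r15a (-1.77) were lower as well. The 5 members higher in T were Fosl2 (1.80, SE 0.23, edgeR adjusted p = 2.58e-08), Dnaja1 (1.32), Dusp2 (0.79), Hspe1 (0.69) and Hsp90ab1, the constitutive HSP90 (0.42). Among the 8 heat shock genes tested in T, 3 were higher and 3 lower, whereas 22 of the 27 early genes were lower. Hsph1 and Hspb1 were too low for both tests.

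**Figure D5:**
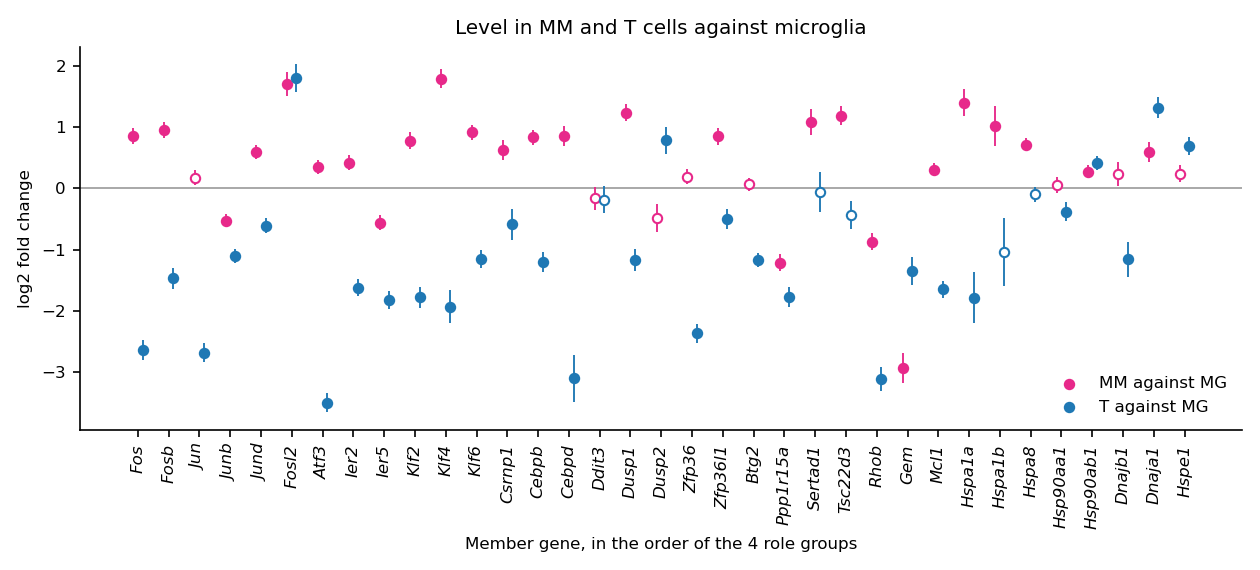
Log2 fold change with its SE (y axis) of MM and of T cells against MG for the 35 members tested (x axis, by role group), from sums per hashtag. Filled points passed an edgeR adjusted p under 0.05, and they are mostly above 0 for MM (22 of 27) and below 0 for T (25 of 30).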

How the data were processed

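Single-cell 3′ libraries of sorted CD45+ ventral midbrain cells were read from the deposited counts, UMIs per gene and barcode that the authors made with Cell Ranger (7.0.1 in the file headers) on mm10, without normalization. The fibril libraries also held deposited hashtag counts. The members and lists were chosen with earlier results of these data known. Cells with 500 to 15000 UMIs, 250 to 5000 genes and at most 10% mitochondrial UMIs were kept. A class needed at least 3 marker UMIs and 70% of all marker UMIs in the cell, and no doublet caller was run. Cells with no hashtag or with several stayed out of the tests. Hashtags were called by HTODemux (Seurat 5.3.0, quantile 0.99). Counts were summed per hashtag and class (at least 10 cells), and tested by edgeR 4.0.16 (TMM, filterByExpr, quasi-likelihood, threshold 0.05) over all genes. Classes were compared with the hashtag as a block. DESeq2 1.42.0 was an alternative. The paper's own test, a hurdle model over cells, was not used, since cells are not replicates. Hashtags may be technical replicates, and p-values measure the spread between them. The edgeR script was tested on simulated data.

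The depth windows of MG were chosen after seeing the data. Test values are given for members past the threshold (beyond 12, those with the largest change) and for the 4 most abundant in MG, and library ratios for members past 1.5-fold with a mean of at least 20 CPM. Of other lists, up to 3 genes with the smallest adjusted p in MG are named. Klf2 in MM, Hspa1b in MG, the values of single members in depth windows, and the examples in BAM and MonoDC were picked after their values were seen. Promoter letters are from RefSeq windows of GRCm38.p6.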

Additional observations from a re-analysis of the deposited data

Results flagged for a closer look

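In 78 groups of hashtag values in MG (37 members and 2 sums, in each fibril library), 4 held a hashtag that stood far from the others by Dixon's criterion, 5.13%, which is about what chance gives (1 in 20). Klf4 in PFF + VH was 223 CPM in hashtag 2, where the next value was 159 CPM. Klf6 in PFF + VH was 716 CPM in hashtag 2, with the next at 566 CPM. Hspe1 in PFF + VH was 165 CPM in hashtag 3, with the next at 144 CPM. Hspa1b in PFF + AZD1480 was 105 CPM in hashtag 4, with the next at 45.8 CPM.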

How the results depend on the processing

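The count of members called for AZD1480 against VH in MG, 5 in all, was 16 in MG of 2000 to 5000 UMIs (an alternative chosen after seeing the data), 11 with the hashtag number as a replicate block (9 higher, 2 lower) and 4 to 16 when 1 hashtag was left out, 16 being the count without VH replicate 2. Of all genes, 5.25%, 22.6% and 20.5% to 24.3% were called in these fits, and 22.5% without VH replicate 2. Deviations of equal hashtag numbers had r = 0.000187, 0.063, -0.021 and 0.069 over all genes tested. Counting noise of low genes can hide a shared factor there, and whether equal numbers share a batch was not tested. Log2 fold changes of Fos turned to 0.0077 with hashtag values centred within cells, 0.025 with the top hashtag holding 70% of hashtag UMIs, 0.074 with the block and -0.12 to 0.12 without 1 hashtag. Those of Jun turned to -0.017 in cells thinned to 1000 UMIs and were -0.0093 to 0.16 without 1 hashtag. In MG of 2000 to 5000 UMIs, Zfp36l1 turned to -0.071, Hspe1 to 0.15, Jun to -0.55, Junb to -0.30 and Btg2 to -0.37. The cause was not tested. Cebpd kept its call in 22 of 22 alternatives (-0.68 to -0.45).

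In T, the count of 2 became 1 with DESeq2, with hashtag values centred within cells, with the top hashtag rule and in cells thinned to 1000 UMIs, each time by losing Hspa8, 4 without a filter on low counts, and 0 to 3 without 1 hashtag. Of all genes, 1.81%, 2.40%, 3.32%, 4.69%, 0.852% and 1.21% to 3.35% were called. Zfp36l1 kept its call in 17 of 19 alternatives and Hspa8 in 9 of 19. Leaving out AZD1480 hashtag 3 or 5 changed nothing in T, as neither entered that test, and both runs count here as kept. In MM and in both tests of a difference between classes, the count stayed 0 in each alternative run, where the run without AZD1480 hashtag 3 repeats the main fit. Members past 2-fold in place of 1.5-fold numbered 2 for Monomer against PBS, 1 for PFF + VH against Monomer, 1 for PFF + AZD1480 against PFF + VH and 0 for PFF + AZD1480 against Monomer (0.126%, 0.773%, 0.315% and 0.804% of all genes). At 1.5-fold, MG of 2000 to 5000 UMIs gave 9, 7 and 1 for the last 3 comparisons (5.82%, 2.48% and 6.40% of all genes), and the stricter class rule gave 1 for PFF + AZD1480 against Monomer (2.45%). That rule left too few cells for the tests in MM and T. Of 665 values of named members in the tests, 614 kept direction and side of the threshold, 31 lost the call, 5 gained it and 15 changed sign. The 614 include the runs that repeat a main fit. The tests in MM and T rest on 14 to 49 cells a hashtag, and Hsph1 and Hspb1 were below the filter on low counts in the tests between classes.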

Other observations

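In neutrophils Cebpb was among the leading members, at 2507, 3643, 1253 and 1637 CPM, beside 430 to 560 CPM in MG. Mcl1, a survival factor of short-lived granulocytes, stood at 2359, 2204, 1055 and 861 CPM. These are 64, 17, 100 and 60 cells, and the MG markers in them reached 43.0% of the MG level in PFF + VH.

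MG of PFF + AZD1480 without a hashtag (619 cells) held 19486 CPM of early genes against 29452 CPM in MG with a single hashtag, with medians of 1583 and 6869 UMIs. All MG of that library with 1000 to 2000 UMIs held 18318 CPM. In PFF + VH the values were 27124 CPM in 11704 MG without one and 25903 CPM in MG with one, with medians of 1438 and 3005 UMIs.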
